A study of Homo sapiens with 9 samples.

Results

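Loss of ACSL4 was measured by RNA-seq in MDA-MB-231, an established human cell line of triple-negative breast cancer, by comparing cells that carry a short hairpin RNA against ACSL4 with cells that carry the empty vector. The 6 libraries compared, of 9 in the series, were chosen by their titles and form 2 groups of 3. Both groups were stable lines made by transduction of the lentiviral vector pLKO.1, without an insert in the control and as pLKO.1-shACSL4 in the knockdown. The other 3 libraries came from control cells given PRGL493, an inhibitor of ACSL4, for which the labels give no dose, time or vehicle. They entered the same model and are quoted only beside a knockdown value. The 3 libraries of a group are different batches of the same engineered cells, so the p-values cover the spread between batches and not the spread between hairpins, transductions or cell lines. The labels give neither the hairpin's sequence nor how many hairpins were used.

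ACSL4 is an acyl-CoA synthetase that joins coenzyme A to long-chain fatty acids, with a preference for arachidonic acid and other polyunsaturated species. The activated acids enter membrane phospholipids, where they are the substrate of lipid peroxidation and a source of eicosanoids, and ACSL4 is known for sensitising cells to ferroptosis and for its high expression in triple-negative breast cancer. The series' title ties ACSL4 to histone acetylation and to the transcription factor SNAIL.

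ACSL4 (chromosome X, 109624244 to 109733403 on GRCh38, minus strand) was at 342, 339 and 366 CPM in control and at 29.5, 23.7 and 27.6 CPM in knockdown. CPM are counts scaled to a common library size after TMM scaling, which corrects library totals for composition. A negative or positive value in parentheses after CPM values, below, is the log2 fold change of knockdown over control. The groups were 12.9-fold apart, so the target set the knockdown libraries apart from the control libraries. Its log2 fold change was -3.69 with an SE of 0.07 (adjusted p = 6.0e-16). This and every adjusted p that follows come from edgeR's quasi-likelihood test with Benjamini-Hochberg adjustment over all genes tested. With PRGL493 ACSL4 was at 333, 349.9 and 360.0 CPM, so its level cannot tell a control library from a PRGL493 library. ACSL4 overlaps KCNE5, and reads of overlapping genes cannot be separated here because strand-specific counting is not stated. The same holds, among genes named below, for FOSB with ERCC1, JUNB with HOOK2, MCL1 with ADAMTSL4-AS1, CPVL with CHN2, LRIG1 with SLC25A26, PTGER4 with TTC33, TAGLN with PCSK7, IL7 with ZC2HC1A, NOTCH4 with GPSM3, SERPINB2 with SERPINB10, ACTA2 with FAS, VTN with SARM1, AHRR with PDCD6, WT1 with WT1-AS, ZNF627 with ACP5, AMMECR1 with RGAG1, CUZD1 with FAM24B, DTX4 with MPEG1, MIR22HG with WDR81, SNHG3 with RCC1 and ZNF300 with IRGM. BHLHE40, EGFR, ENO1, ID2, ISM1, ITGB2, SLC7A11 and UNC5B overlap antisense genes, and PLEC and some others contain microRNA genes.

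Library totals were 30845845 to 33020196 counts in control, 37833345 to 43027190 in knockdown and 28673938 to 41310069 with PRGL493. The 7 markers of a basal or mesenchymal breast line, among them VIM and CD44, summed to 9384 to 9677 CPM in control and 9424 to 9754 CPM in knockdown. The 8 luminal breast markers summed to 1215 to 1306 CPM in control and 1057 to 1280.5 CPM in knockdown, mostly from the keratins KRT8, KRT18 and KRT19, while ESR1, PGR and FOXA1 stayed below 0.06 CPM in all 6 libraries. The 7 fibroblast markers summed to 25.6 to 27.5 CPM in control and 22.1 to 22.6 CPM in knockdown, nearly all of it PDGFRB, with 5 under 1 CPM and DCN at 0. Of 5 adipocyte markers 4 were under 1 CPM and ADIPOQ, LEP and FABP4 were at 0, and of 5 endothelial markers 3 were under 1 CPM. Of 6 leukocyte markers 4 were under 1 CPM and PTPRC did not exceed 0.0791 CPM in any library. CD14 and CD68 made up nearly all of the leukocyte sum, which was 147 to 164 CPM in control and 174 to 189 CPM in knockdown, and the part of other cells in the results was not tested. In RNA from whole cultures, fewer cells of one kind and less RNA per cell cannot be told apart. Knockdown replicate 2 stood apart from every other library by transcript length. With genes split by length into 10 equal bins, in the bin of shortest transcripts (median 1184 bp) its median deviation from the mean of all 9 libraries was 0.23 on the log2 scale, and in the bin of longest (median 9446 bp) it was -0.22. In the other 5 libraries of the comparison these medians lay between -0.03 and 0.06, and results that rest on replicate 2 are given with and without it.

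**Figure D1:**
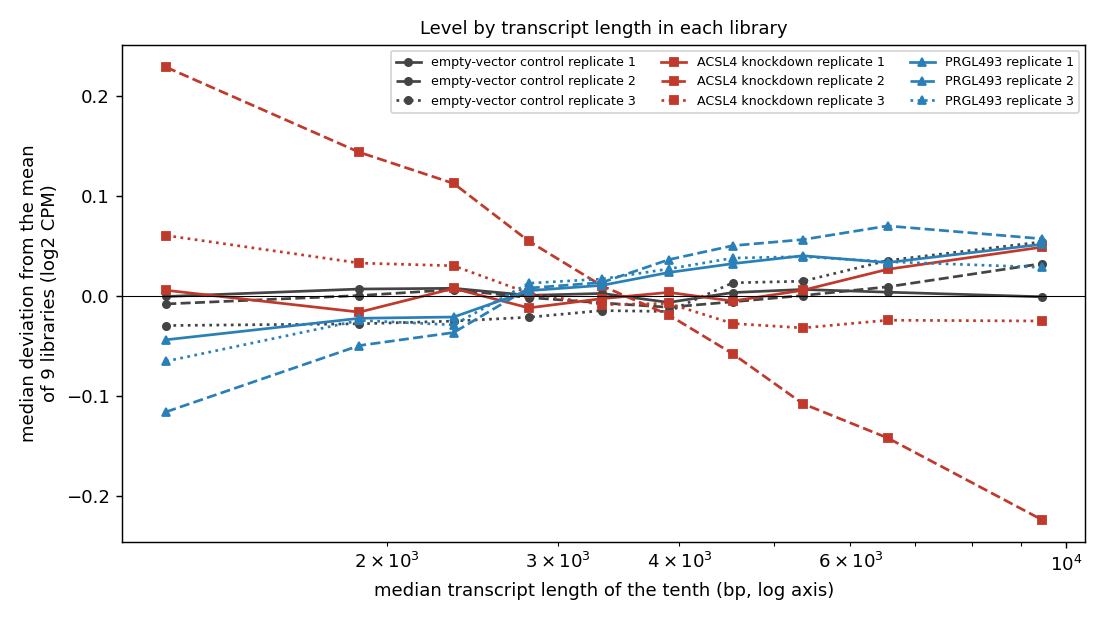
Median deviation of log2 CPM from the mean of all 9 libraries (vertical axis) for 10 equal bins of the tested genes ordered by transcript length (horizontal axis, log scale, bp), with 1 line per library. Knockdown replicate 2 falls from 0.23 at the shortest bin to -0.22 at the longest, while the other 5 control and knockdown libraries stay between -0.03 and 0.06 in those bins.

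The knockdown lowered a small set of genes deeply and raised few genes as far. Of 14135 genes tested 2083 (14.7%) were called higher and 2167 (15.3%) lower at an adjusted p below 0.05, and 30.1% in either direction. Higher calls made up 49.0% of all calls with TMM factors, 59.8% with totals alone, which moved the median of all genes to 0.04, and 58.7% with upper-quartile factors. At least 2-fold changes were fewer, with 97 genes higher (0.686%) and 234 lower (1.66%). Called changes had a median size of 0.33 (log2). Counted another way, the 3 control and the 3 knockdown CPM values did not overlap in 5938 genes (42.0%). No gene went from at most 3 counts in every library of one group to at least 10 in every library of the other, in either direction. Without knockdown replicate 2, 2167 genes of 14282 (15.2%) were higher and 2325 (16.3%) lower.

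**Figure D2:**
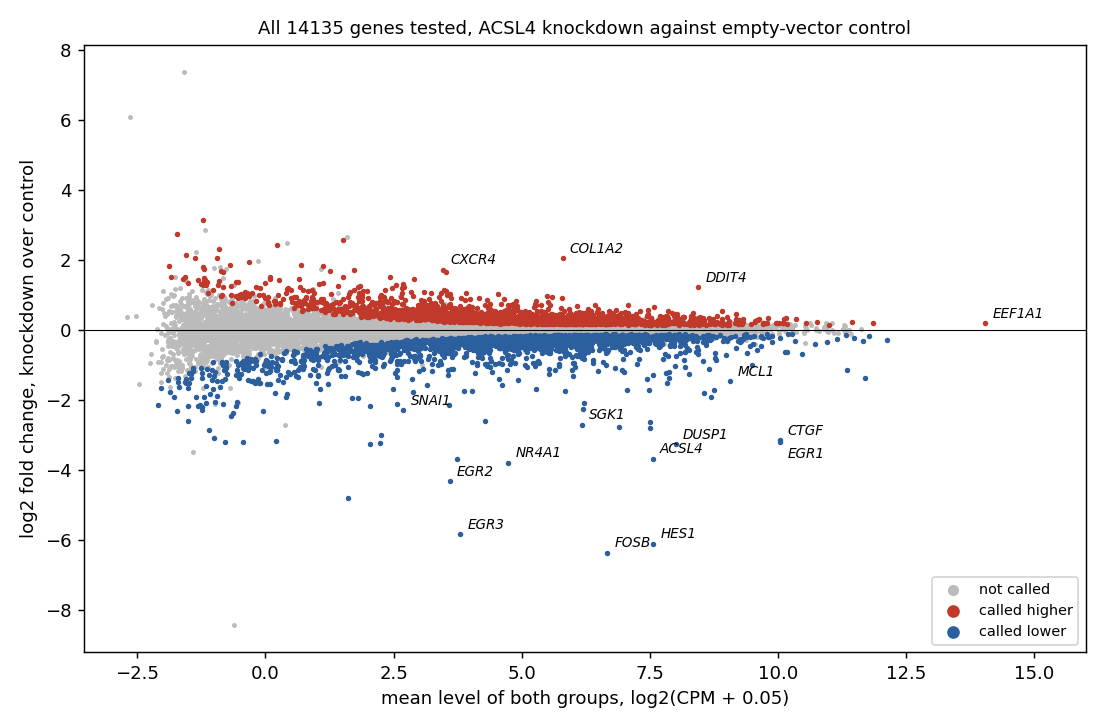
Log2 fold change of knockdown over control (vertical axis) against the mean level of both groups as log2(CPM + 0.05) (horizontal axis), 1 point per gene tested, with called genes in colour. The deepest falls among well-expressed genes, from FOSB at -6.38 to DUSP1 at -3.27, have no rise of like size opposite them, where COL1A2 at 2.04 is the largest rise labelled.

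By transcript length the calls were uneven. In the 20% of genes with the shortest transcripts (87 to 2114 bp) 19.1% were higher and 7.21% lower, with a median log2 fold change of 0.09. In the 20% with the longest (5867 to 109224 bp) 8.74% were higher and 20.5% lower, with a median of -0.07. Without knockdown replicate 2 the medians were 0.03 and -0.01, the number lower among the shortest went from 199 to 304 and the number higher among the longest from 241 to 413. With the length trend of each library removed, which levels these medians by design, 353 of the shortest were higher and 378 lower. Among the longest 457 were then higher and 490 lower. The part of this drift in small differences of single short or long genes was not tested.

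Growth factor immediate early genes are transcribed within minutes of a signal, through SRF, ELK and CREB factors already bound at their promoters. They encode transcription factors that act on later genes, and their mRNAs are short-lived. Of 34 listed immediate early factors 33 were tested, 29 fell (87.9%), 0 rose and 4 were not called. Of all genes tested 15.3% fell and 14.7% rose. The median log2 fold change of the list was -1.19 against 0.00 over all genes tested. This list, like the others, was chosen with earlier results of these data known. Without knockdown replicate 2 the count was again 29 lower and 0 higher, with a median of -1.26. The members that were not called were the coregulators NAB1 and NAB2, which bind EGR proteins, the clock gene PER2 and IER5L.

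All 4 EGR zinc finger factors fell. EGR1 was at 1918, 1859 and 1917 CPM in control and at 238, 161 and 219 CPM in knockdown (log2 fold change -3.20 with an SE of 0.13, adjusted p = 2.8e-07). The groups lay far apart, and knockdown replicate 2 was the lowest library, without which the log2 fold change was -3.05. EGR4, a low-level member, went from 6.42, 6.46 and 4.68 to 0.342, 0.132 and 0.128 CPM (-4.80, SE 0.27), which is 196, 199 and 153 counts against 15, 5 and 5. EGR2 went from 24.2, 22.6 and 22.2 to 1.16, 1.00 and 1.23 CPM, a 20.2-fold drop.

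All 8 FOS, JUN and ATF3 genes of the list fell, by amounts that ranged from a log2 fold change of -6.38 in FOSB to -0.19 in FOSL2. AP-1 is the dimer of FOS and JUN family proteins. FOS was at 318, 319 and 317 CPM in control and 47.7, 41.3 and 46.4 CPM in knockdown. JUNB went from 283, 263 and 255 to 98.5, 117 and 112 CPM (-1.29, SE 0.06), JUN from 424, 409.7 and 396 to 263, 259 and 270.3 CPM (-0.64, SE 0.05) and JUND from a mean of 176 ± 13.8 to 124 ± 2.06 CPM (SD, n = 3, log2 fold change -0.50). Within the FOS family the order was FOSB, FOS (-2.82), FOSL1 (-0.53) and FOSL2. The groups of each did not overlap, as was so for 42.0% of all genes tested, and for FOSB and FOS this was a condition of the choice.

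All 3 NR4A orphan nuclear receptors fell. NR4A1 went from 48.8, 50.5 and 50.2 to 3.58, 3.19 and 3.90 CPM, NR4A2 from 5.89, 5.06 and 5.53 to 1.48, 1.29 and 1.49 CPM (-1.95, SE 0.14, adjusted p = 2.9e-08) and NR4A3 from a mean of 0.540 to 0.142 CPM (-1.91). Among the other members CSRNP1, a nuclear protein of the same early class, fell 4.81-fold (124, 119 and 121 to 22.7, 27.5 and 25.5 CPM), and IER2 fell 3.81-fold (688, 649 and 642 to 169.5, 168 and 181 CPM). ARC, best known from neurons, fell from 1.98 to 0.218 CPM (-3.18, SE 0.33). SRF itself, which drives many of these promoters, fell far less, from 139, 137 and 131 to 101, 103 and 109 CPM (-0.38, SE 0.05, adjusted p = 3.5e-05).

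**Figure D3:**
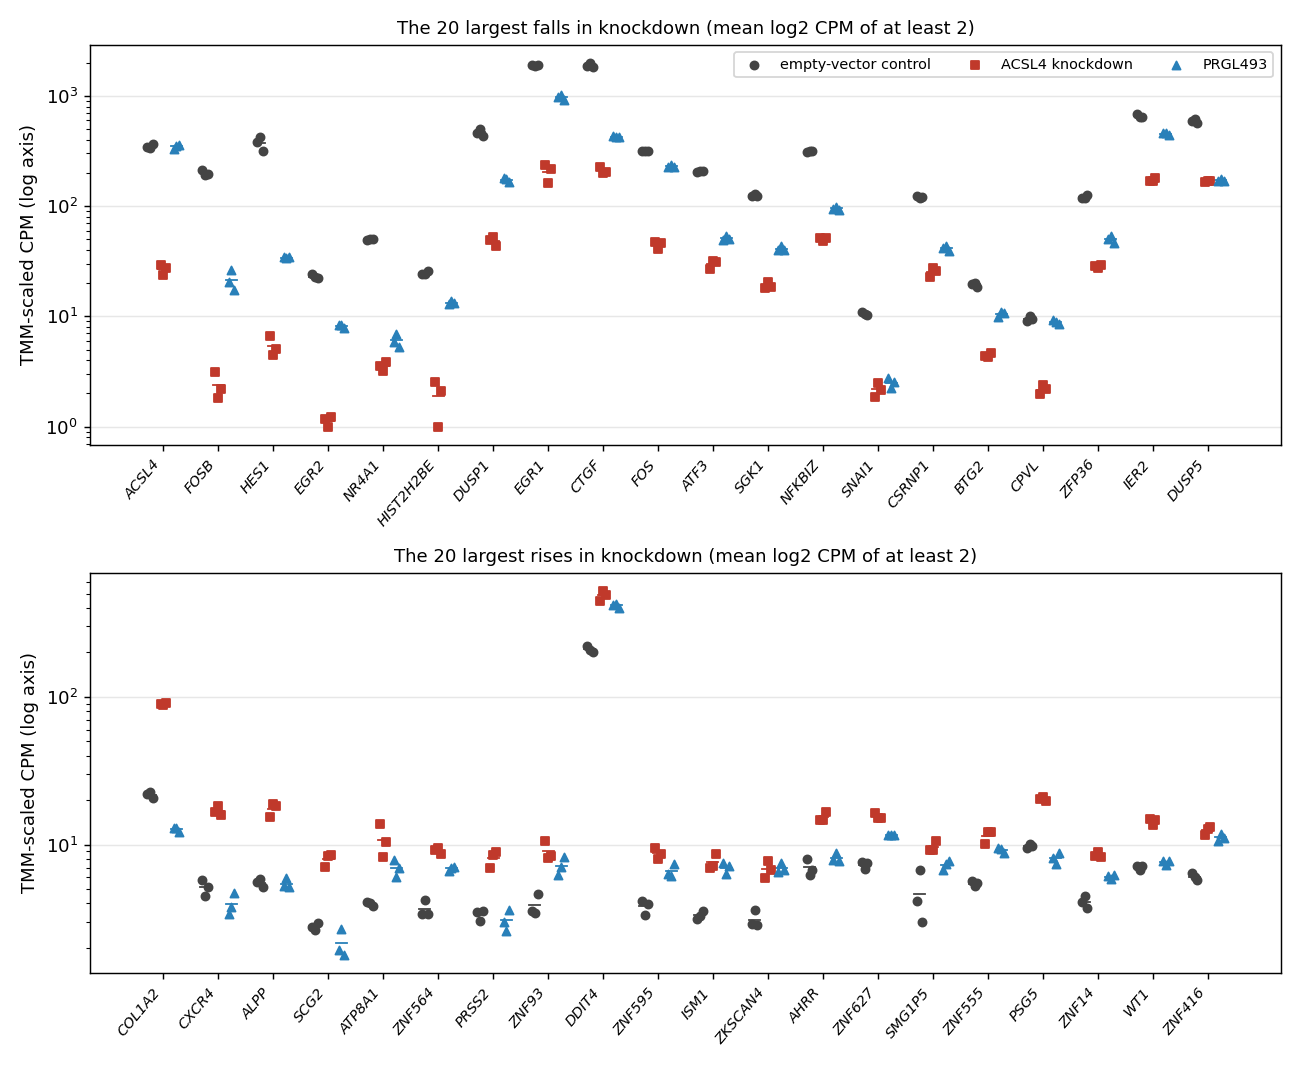
TMM-scaled CPM (vertical axes, log scale) in each of the 9 libraries for the 20 largest falls (upper panel) and the 20 largest rises (lower panel) in knockdown among called genes above the level limit (mean log2 CPM of 2), a point per library and a line at each group mean. Groups without overlap were a condition of the choice. ACSL4 at 333 to 360 CPM and CPVL at 8.61 to 9.34 CPM with PRGL493 sit near their control levels.

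The promoters of 5 of the genes that fell are shown because they hold elements that signal-induced genes are known for, and were chosen after their values and matches were seen. Each run is the 250 bases just before the RefSeq transcription start on GRCh38.p14, written 5′ to 3′ on the gene's own strand, with the element in capitals. The elements searched, on both strands, were the CArG box bound by SRF, the full cyclic AMP response element TGACGTCA bound by CREB and ATF factors, and GGAATG, the core bound by TEAD factors with YAP. EGR1 (chr5:138465229-138465478, plus strand) holds 2 CArG boxes in this window.
EGR1: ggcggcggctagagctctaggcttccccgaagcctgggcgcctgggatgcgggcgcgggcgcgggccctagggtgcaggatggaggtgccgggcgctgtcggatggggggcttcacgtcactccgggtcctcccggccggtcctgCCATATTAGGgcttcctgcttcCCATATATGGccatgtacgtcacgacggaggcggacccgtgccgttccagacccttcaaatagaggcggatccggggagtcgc
EGR2 (chr10:62816367-62816616, minus strand, 1 of 3 RefSeq start windows of the gene) holds 1 CArG box.
EGR2: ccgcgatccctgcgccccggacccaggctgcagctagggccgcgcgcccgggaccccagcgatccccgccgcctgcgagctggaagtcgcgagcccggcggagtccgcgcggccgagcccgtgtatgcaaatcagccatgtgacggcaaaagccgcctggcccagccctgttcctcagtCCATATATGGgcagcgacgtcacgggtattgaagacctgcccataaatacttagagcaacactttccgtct
SRF (chr6:43171019-43171268, plus strand, 1 of 2 windows) holds 2 CArG boxes, the nearer 10 bases before the start.
SRF: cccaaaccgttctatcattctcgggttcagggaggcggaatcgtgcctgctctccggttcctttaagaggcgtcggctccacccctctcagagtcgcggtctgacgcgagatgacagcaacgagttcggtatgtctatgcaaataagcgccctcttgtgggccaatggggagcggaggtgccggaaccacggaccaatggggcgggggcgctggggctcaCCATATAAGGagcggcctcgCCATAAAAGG
DUSP1 (chr5:172771196-172771445, minus strand), the MAP kinase phosphatase described next, holds TGACGTCA.
DUSP1: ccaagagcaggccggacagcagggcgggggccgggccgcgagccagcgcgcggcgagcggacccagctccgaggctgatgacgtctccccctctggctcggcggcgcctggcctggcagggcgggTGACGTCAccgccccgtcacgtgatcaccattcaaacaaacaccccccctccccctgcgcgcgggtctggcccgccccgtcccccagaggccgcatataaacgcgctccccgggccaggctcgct
CTGF, named CCN2 in RefSeq (chr6:131951373-131951622, minus strand), is a secreted matrix protein and YAP target whose window holds GGAATG at 3 places.
CCN2: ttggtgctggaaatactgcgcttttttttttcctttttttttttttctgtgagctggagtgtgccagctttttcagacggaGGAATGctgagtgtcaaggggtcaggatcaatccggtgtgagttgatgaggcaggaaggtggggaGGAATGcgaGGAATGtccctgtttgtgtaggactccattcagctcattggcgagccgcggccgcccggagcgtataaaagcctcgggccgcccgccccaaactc
A CArG box was present in 1.16% of all 35116 promoter windows of this length. Of the 250 windows that belong to 167 matched genes lower at least 2-fold 7 (2.80%) held it, as did 2 of 109 windows (1.83%) of 70 matched genes higher at least 2-fold. TGACGTCA was in 1.65% of all windows, in 3 of 250 (1.20%) and in 1 of 109 (0.917%). GGAATG was in 11.9% of all windows, in 32 of 250 (12.8%) and in 7 of 109 (6.42%). A match is only these letters in this window, and windows of a gene overlap.

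Genes that restrain MAP kinase signalling, many of them induced by the pathway they inhibit, fell in 13 of 28 cases and rose in 5 (median -0.15). These shares were 46.4% and 17.9%, against 15.3% and 14.7% of all genes tested, so the share higher was near the background. The dual-specificity phosphatases DUSP1, DUSP2, DUSP5 and DUSP6 fell most. DUSP2 went from 8.58, 8.99 and 7.61 to 1.00, 1.13 and 0.949 CPM, an 8.14-fold drop. DUSP5, which acts on nuclear ERK, went from 588, 611 and 566 to 166, 169 and 169 CPM (log2 fold change -1.81 with an SE of 0.05, adjusted p = 1.9e-14), and DUSP6, its cytoplasmic counterpart, from 341, 338 and 334 to 117, 118 and 119 CPM (-1.52, SE 0.05). In both the knockdown libraries lay close together and far below control. SPRY4, an inhibitor of receptor kinase signalling, fell to 50.5% of control (-0.98). LRIG1, which promotes the loss of EGFR family receptors from the cell, rose from 144, 147 and 139 to 208, 207 and 218 CPM (0.56, SE 0.05, adjusted p = 1.8e-07).

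On the receptor side, 6 of 10 tested EGFR family receptors and ligands fell and 1 rose (median -0.31). HBEGF, a ligand of EGFR and an early gene itself, was at 331, 328 and 322 CPM in control and 137, 144 and 141 CPM in knockdown (log2 fold change -1.22 with an SE of 0.05, adjusted p = 3.8e-12). The ligands AREG (235, 251 and 234 to 163, 183 and 171 CPM, -0.48) and EREG (-0.23) and the receptor ERBB3 (-0.43) fell less. EGFR went from 249, 287 and 285 to 211, 172 and 217 CPM, where replicate 2 was lowest. The groups of EGFR did not overlap, as was so for 42.0% of all genes tested. Its log2 fold change was -0.45 (SE 0.11, adjusted p = 0.0097), and -0.36 without that library (adjusted p = 0.03). NRG1, a ligand of ERBB3, was the member that rose, from 27.0, 28.0 and 25.8 to 33.6, 38.5 and 32.8 CPM (0.38, SE 0.08).

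SNAI1, which encodes SNAIL, went from 11.1, 10.6 and 10.4 to 1.87, 2.50 and 2.15 CPM, and was at 2.75, 2.24 and 2.54 CPM with PRGL493. SGK1, a kinase close to AKT that responds to serum, steroid hormone and osmotic stress, fell 6.59-fold. It was at 123, 129 and 124 CPM in control and 18.2, 20.6 and 18.4 CPM in knockdown (log2 fold change -2.72 with an SE of 0.06, adjusted p = 3.9e-15). CPVL, a serine carboxypeptidase, fell 4.40-fold, from 9.14, 10.1 and 9.41 to 1.96, 2.37 and 2.18 CPM, and of the 20 deepest falls it and ACSL4 were the genes with no call in PRGL493 against control (CPVL 8.93 ± 0.372 CPM with PRGL493, PRGL493 over control -0.09, adjusted p = 0.45). The difference between knockdown and PRGL493 was called for CPVL (log2 fold change -2.04, adjusted p = 2.9e-10).

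Of 27 tested mRNA decay factors 7 fell (25.9%) and 4 rose (14.8%, median -0.06), against 15.3% and 14.7% of all genes tested. The falls were led by BTG2, which recruits the CCR4-NOT deadenylase (19.7, 20.2 and 18.6 to 4.33, 4.30 and 4.62 CPM, -2.14), and ZFP36, which binds AU-rich elements (118, 119 and 125 to 28.8, 27.3 and 29.3 CPM, -2.09). Its relative ZFP36L1 went from 558 ± 32.8 to 316 ± 28.0 CPM (-0.82), and the RNase ZC3H12A from 135 ± 4.75 to 66.4 ± 2.03 CPM (-1.02). DCP2, the catalytic subunit of the decapping enzyme, went the other way, from 29.01, 26.3 and 30.9 to 55.4, 41.0 and 48.1 CPM (0.74, SE 0.10, adjusted p = 6.5e-05).

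Of 15 tested chemokines and colony stimulating factors 8 fell (53.3%, against 15.3% of all genes tested) and 0 rose (against 14.7%). Their median was -0.38, and the counts were the same without knockdown replicate 2. CXCL8, a neutrophil attractant, went from 955, 929.6 and 1014 to 493, 502 and 432 CPM (-1.02, SE 0.08), and CSF2, or GM-CSF, from 95.6, 97.0 and 92.2 to 47.6, 62.1 and 49.3 CPM (-0.84, SE 0.08). Of 25 interleukins and receptors 10 fell (40.0%) and 6 rose (24.0%). Without replicate 2 these were 9 and 3, and with library totals alone 8 and 8. LIF, a cytokine of the IL6 family, went from 80.2, 75.2 and 70.9 to 45.6, 45.6 and 48.2 CPM (-0.70), and IL6ST, the receptor subunit through which LIF signals, from 916, 936 and 997 to 775, 612 and 672 CPM (-0.47). IL7 was higher (0.812 to 1.35 CPM, 0.74, SE 0.24, adjusted p = 0.029).

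The feedback arm of NF-kB was mixed, with 7 of 30 members higher (23.3%) and 5 lower (16.7%, median -0.00). Of all genes tested 14.7% were higher and 15.3% lower, so the share lower was near the background. NFKBIZ, a nuclear IkB protein, went from 309, 313 and 314 to 51.9, 47.9 and 50.9 CPM (-2.63). TNFAIP3, or A20, an inhibitor that NF-kB induces, fell from 52.4, 54.0 and 48.9 to 27.0, 24.0 and 24.3 CPM (-1.04, SE 0.07). TRAF2, an adaptor of TNF receptors, rose from 27.1, 23.2 and 21.7 to 36.3, 35.2 and 37.0 CPM (0.59), and BCL3, another nuclear IkB protein, from 35.8 to 50.4 CPM (0.49).

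Among developmental regulators, Kruppel-like factors fell in 8 of 20 cases (40.0%) and rose in 0 (median -0.20), against 15.3% and 14.7% of all genes tested. KLF10 went from 313, 313 and 326 to 136, 132 and 134 CPM (-1.25), KLF6 from 571, 529 and 559.6 to 258, 251 and 255 CPM (-1.12) and KLF2, which laminar flow induces in endothelium, from 13.0, 14.5 and 12.3 to 6.43, 5.74 and 5.18 CPM (-1.19). None of these 3 had overlapping groups, as was so for 42.0% of all genes tested. Of 32 Notch pathway genes 9 fell (28.1%) and 2 rose (6.25%, median -0.12). Beside the target HES1, which fell to 1.43% of control (385, 424 and 314 to 6.59, 4.43 and 5.03 CPM), the receptors NOTCH3 (18.4, 17.3 and 16.2 to 7.48, 8.09 and 8.39 CPM, -1.11) and NOTCH4 (1.66 to 0.617 CPM, -1.43) and the target HEYL (3.77, 4.61 and 5.32 to 2.10, 2.58 and 2.62 CPM, -0.91) fell. HEY1 (0.944 to 0.526 CPM, -0.84) was called with all libraries and not without replicate 2 (adjusted p = 0.081). DTX4, a ubiquitin ligase that acts on Notch, was higher at a low level (0.245 to 0.776 CPM, 1.65, SE 0.38).

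Of 20 tested genes of ID proteins and BMP signalling 7 rose and 2 fell (median 0.08). ID3, which blocks basic helix-loop-helix factors, was at 7.70, 7.37 and 7.12 CPM in control and 11.2, 13.4 and 11.5 CPM in knockdown (0.70, SE 0.09). ID2 (0.671 to 1.29 CPM, 0.95) and FST, or follistatin, which sequesters activins (9.53, 8.83 and 8.65 to 14.0, 14.8 and 15.5 CPM, 0.71), rose too. BAMBI, a decoy receptor of the family, fell (15.9 to 10.05 CPM, -0.67). Of 33 Wnt pathway genes 5 rose (15.2%) and 7 fell (21.2%, median -0.03), near the background of all genes, and the deepest fall was in SOST, the secreted inhibitor sclerostin, from 45.2, 47.2 and 41.3 to 15.8, 16.2 and 16.9 CPM (-1.45, SE 0.07). The developmental zinc finger factor WT1 rose 2.07-fold, from 7.14, 6.72 and 7.12 to 15.0, 13.7 and 14.7 CPM (log2 fold change 1.05 with an SE of 0.08, adjusted p = 7.8e-08). AHRR, the repressor of the aryl hydrocarbon receptor, rose 2.19-fold (8.06, 6.26 and 6.76 to 14.6, 14.7 and 16.7 CPM).

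**Figure D4:**
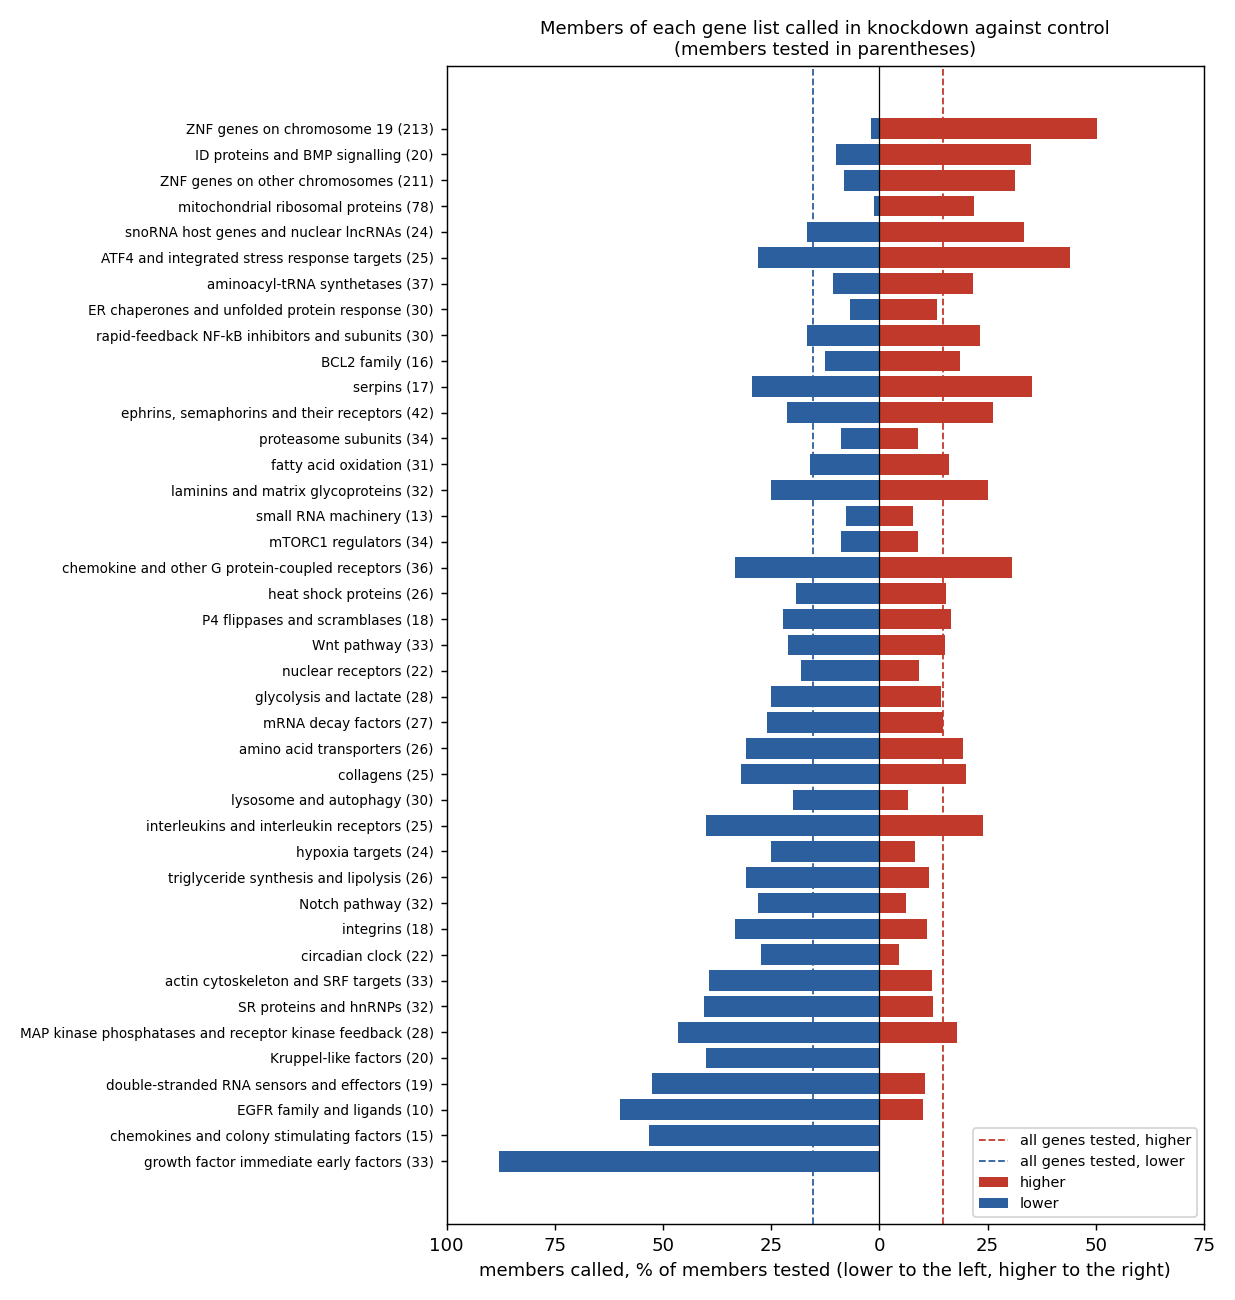
Share of tested members of each gene list called lower (blue, to the left) and higher (red, to the right) in knockdown against control, with members tested in parentheses and dashed lines at the 14.7% higher and 15.3% lower of all genes tested. Immediate early factors lie at one end with 29 of 33 lower, and zinc finger genes of chromosome 19 at the other with 107 of 213 higher.

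Of 33 actin and SRF target genes 13 fell (39.4%) and 4 rose (12.1%, median -0.10), against 15.3% and 14.7% of all genes tested. ACTB was at 5091, 4775 and 4961 CPM in control and 3709.7, 4373 and 3873 CPM in knockdown (-0.31, SE 0.06, adjusted p = 9.9e-04), and ACTG1 at 3566, 3593 and 3608 and 2680.4, 3107 and 2828 CPM (-0.32, SE 0.05). Knockdown replicate 2 was the library nearest to control in both, and without it both log2 fold changes were -0.38. TAGLN, or transgelin, fell (5.23 to 3.38 CPM, -0.63), while ACTA2, smooth muscle actin, rose (4.97 to 6.84 CPM, 0.46).

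Collagens rose in 5 of 25 cases and fell in 8 (median 0.02), and their largest changes had opposite signs. COL1A2 was at 21.9, 22.9 and 20.7 CPM in control and 89.4, 88.2 and 90.6 CPM in knockdown, and COL6A3 at 68.8, 72.7 and 72.0 and 36.8, 28.8 and 37.7 CPM (log2 fold change -1.05 with an SE of 0.08, adjusted p = 4.9e-08). COL8A2 (-0.90), COL16A1 (-0.67) and COL7A1 (-0.63) fell. Laminins and matrix glycoproteins rose in 8 and fell in 8 of 32 cases, with FBLN1 lower (2.04 to 1.10 CPM, -0.90) and VTN, vitronectin, higher (1.49 to 2.76 CPM, 0.88).

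Of 18 integrins 6 fell (33.3%) and 2 rose (11.1%, median -0.08), against 15.3% and 14.7% of all genes tested. The leukocyte-type integrin chains split. ITGAX, the alpha chain CD11c, fell 3.91-fold (5.99, 4.77 and 4.49 to 1.46, 1.24 and 1.18 CPM, -1.97 with an SE of 0.16, adjusted p = 1.0e-07). ITGB2, the beta chain with which it pairs, rose (6.29, 6.49 and 5.84 to 8.42, 9.88 and 10.2 CPM, 0.61, SE 0.10). The 6 leukocyte markers summed to 147 to 164 CPM in control and 174 to 189 CPM in knockdown, and their part in these changes was not tested. Serpins rose in 6 (35.3%) and fell in 5 (29.4%) of 17 cases (median 0.13). SERPINB2, or PAI-2, an inhibitor of plasminogen activators, rose from 1.67, 1.49 and 1.19 to 3.95, 4.98 and 3.54 CPM (1.52, SE 0.20, adjusted p = 3.4e-05). SERPINB9, an inhibitor of granzyme B, rose from 109, 107 and 106 to 152, 149 and 156 CPM (0.51).

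Receptors at the cell surface changed in both directions. Of 36 chemokine and other G protein-coupled receptors 11 rose and 12 fell (median 0.03), both shares above the 14.7% and 15.3% of all genes tested. CXCR4 was at 5.76, 4.51 and 5.20 CPM in control and 16.7, 18.2 and 15.8 CPM in knockdown, and S1PR1, a receptor of sphingosine 1-phosphate, at 2.00, 2.66 and 2.20 and 5.06, 3.95 and 5.08 CPM (1.04, SE 0.17, adjusted p = 2.3e-04). PTGER4, the EP4 receptor of prostaglandin E2, fell 3.01-fold (13.5, 14.1 and 12.5 to 4.47, 4.40 and 4.41 CPM, -1.59). Of 42 axon guidance ligands and receptors (ephrins, semaphorins, SLIT, netrin and their receptors) 11 rose and 9 fell (median 0.02). SLIT2, a guidance ligand, rose from 16.9, 19.4 and 16.9 to 34.8, 29.7 and 33.9 CPM (0.89, SE 0.08). EPHA4, an ephrin receptor, rose 2.36-fold (2.13, 2.14 and 2.08 to 5.04, 4.64 and 5.28 CPM). EFNB1, an ephrin, fell from 12.6 ± 0.868 to 6.37 ± 0.402 CPM (-0.99), and the netrin receptor UNC5B from 1.64, 1.85 and 2.20 to 1.05, 0.685 and 0.616 CPM (-1.26). SCG2, a granin of secretory vesicles, was among the 20 largest rises (2.78, 2.66 and 2.93 to 7.05, 8.33 and 8.51 CPM, 1.51, SE 0.14), as was ISM1, a secreted protein (3.14, 3.31 and 3.55 to 6.98, 7.17 and 8.64 CPM, 1.19).

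The lists of triglyceride, fatty acid oxidation, flippase and scramblase genes held few large changes. Of 26 triglyceride synthesis and lipolysis genes 8 fell (30.8%) and 3 rose (11.5%, median -0.02), against 15.3% and 14.7% of all genes tested. PLIN5, a lipid droplet coat protein, fell (0.733 to 0.337 CPM, -1.08). HILPDA, which inhibits the lipase ATGL, rose (26.0 to 36.6 CPM, 0.49), and G0S2, another inhibitor of that lipase, fell (231 to 194 CPM, -0.25). FITM2, which acts in lipid droplet formation, fell (8.43 to 5.86 CPM, -0.52). Of 31 fatty acid oxidation genes 5 rose and 5 fell (median 0.04), near the background, with CPT1C (-0.51) and ACADS (-0.44) lower and ETFA (0.30) higher. Of 18 flippases and scramblases 3 rose (16.7%) and 4 fell (22.2%). ATP8A1, which moves aminophospholipids to the inner leaflet, was the outlying member (4.09, 4.06 and 3.82 to 13.7, 8.27 and 10.4 CPM, 1.44).

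ATF4 and integrated stress response targets, which cells induce when amino acids run short or the endoplasmic reticulum is stressed, split. Of 25 tested 11 rose and 7 fell (median 0.15), both shares above background. The mTORC1 inhibitors in this list parted. DDIT4 went from 222, 209 and 201 to 448, 522 and 491 CPM and SESN2 from 73.6, 66.7 and 69.4 to 33.5, 36.2 and 36.9 CPM (-0.98, SE 0.06). PHGDH and PSAT1, enzymes of serine synthesis, rose, PHGDH from 21.8, 20.2 and 21.1 to 31.7, 38.5 and 33.3 CPM (0.71, SE 0.08) and PSAT1 from 296, 308 and 313 to 381, 401 and 379 CPM (0.34). PPP1R15A, or GADD34, which reverses the arrest of translation, fell (426 to 265 CPM, -0.68), and so did the cystine transporter SLC7A11 (153 to 103 CPM, -0.57), which supplies glutathione synthesis.

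PRGL493 was compared with the same 3 control libraries, so the effects share them and are given side by side. In PRGL493 against control 3030 genes (21.4%) were higher and 2879 (20.4%) lower, and between knockdown and PRGL493 3454 (24.4%) were higher in knockdown and 3676 (26.0%) lower. Among the ATF4 targets 19 of 25 fell and 2 rose with PRGL493, and 19 were higher in knockdown than with PRGL493 and 2 lower. PHGDH was at 10.3, 9.79 and 11.2 CPM with PRGL493 (knockdown over PRGL493 1.72, adjusted p = 8.7e-11). Aminoacyl-tRNA synthetases rose in 8 (21.6%) and fell in 4 (10.8%) of 37 cases in knockdown, where 14.7% of all genes tested rose and 15.3% fell. With PRGL493 these synthetases fell in 22 cases and rose in 1. AARS, the alanyl-tRNA synthetase, was at 334, 329 and 326 CPM in control, 396, 432 and 417 CPM in knockdown and 178, 174 and 163 CPM with PRGL493 (knockdown over PRGL493 1.27). Chaperones and sensors of the unfolded protein response rose in 4 and fell in 2 of 30 cases in knockdown, near or below the background, and fell in 19 and rose in 3 with PRGL493. HSPA5, the chaperone BiP, was at 3697 ± 142 CPM in control, 3280.2 ± 59.0 CPM in knockdown and 1761 ± 16.3 CPM with PRGL493.

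Of the 33 immediate early factors 29 fell in knockdown, and 27 fell and 3 rose with PRGL493. For 24 of them the level was lower in knockdown than with PRGL493 and for 2 higher, with a median difference of -0.61. FOSB was at 20.5, 26.5 and 17.2 CPM with PRGL493 against 3.15, 1.82 and 2.18 CPM in knockdown (knockdown over PRGL493 -3.14, adjusted p = 6.6e-06). EGR1 was at 966, 1012 and 921 CPM with PRGL493 (knockdown over PRGL493 -2.23). JUN parted between the treatments, at 585, 586 and 560.2 CPM with PRGL493, above control (PRGL493 over control 0.49, adjusted p = 4.6e-07), and below control in knockdown. DUSP5 was at 171, 175 and 168 CPM with PRGL493 and did not differ past the threshold from knockdown (knockdown over PRGL493 -0.02, SE 0.05, adjusted p = 0.70). HBEGF was likewise at 137, 143 and 135 CPM (knockdown over PRGL493 0.03, SE 0.05, adjusted p = 0.68). COL1A2 was at 13.0, 12.9 and 12.1 CPM with PRGL493, below control, while it rose in knockdown (knockdown over PRGL493 2.82), and SERPINB2 was at 0.292, 0.594 and 0.465 CPM (knockdown over PRGL493 3.24, adjusted p = 1.8e-08). NRG1 stood at 16.4, 14.5 and 13.9 CPM with PRGL493, lower than in both other groups.

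ZNF genes encode zinc finger proteins, most of which bind DNA and many of which recruit the corepressor TRIM28 through a KRAB domain. They are numerous on chromosome 19, where they lie in clusters. Of 424 tested ZNF genes 173 rose (40.8%) and 21 fell (4.95%), against 14.7% and 15.3% of all genes tested, with a median log2 fold change of 0.21. On chromosome 19, 107 of 213 rose and 4 fell (median 0.31), and on other chromosomes 66 of 211 rose and 17 fell (median 0.12). Of the other 796 tested genes of chromosome 19, 91 rose and 122 fell (median -0.00). Without knockdown replicate 2, 186 ZNF genes rose and 21 fell, and with the length trend of each library removed 183 rose and 22 fell. With library totals alone 182 rose and 14 fell.

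**Figure D5:**
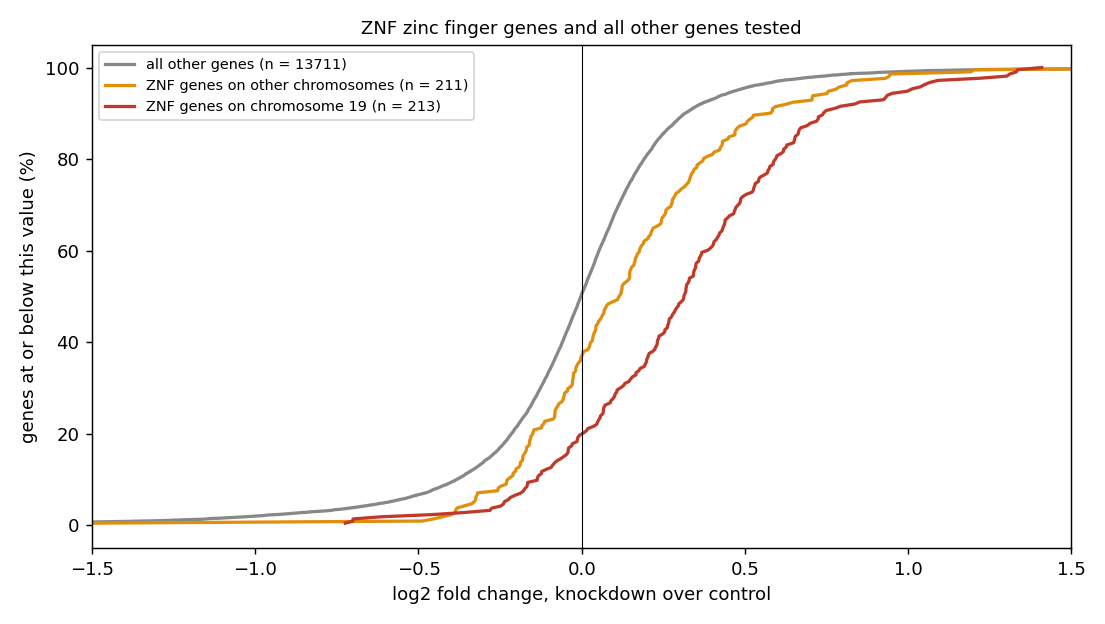
Cumulative share of genes (vertical axis, %) by log2 fold change of knockdown over control (horizontal axis) for ZNF genes of chromosome 19, ZNF genes of other chromosomes and all other genes tested. The curve of chromosome 19 lies furthest to the right, with medians of 0.31, 0.12 and -0.00 in that order.

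ZNF627 (chromosome 19) was at 7.66, 6.88 and 7.46 CPM in control and 16.4, 15.3 and 15.18 CPM in knockdown (log2 fold change 1.09 with an SE of 0.08, adjusted p = 3.1e-08). ZNF595 (chromosome 4) went from 4.16, 3.34 and 3.94 to 9.44, 8.01 and 8.69 CPM (1.19, SE 0.12) and ZNF14 (chromosome 19) from 4.09, 4.51 and 3.73 to 8.42, 8.88 and 8.23 CPM (1.05). For these genes groups without overlap were a condition of the choice. The largest change among ZNF genes was in ZNF300 on chromosome 5, which rose from a mean of 0.160 to 0.805 CPM (2.31, SE 0.40), and the largest fall was in ZNF704 on chromosome 8 (2.87 to 0.994 CPM, -1.52, SE 0.17). With PRGL493 198 ZNF genes rose and 16 fell against the shared controls, where 21.4% of all genes tested rose and 20.4% fell. Between knockdown and PRGL493 55 of the 424 were higher in knockdown and 89 lower, where 24.4% of all genes tested were higher and 26.0% lower. ZNF627 was at 11.6, 11.6 and 11.6 CPM with PRGL493, between control and knockdown (knockdown over PRGL493 0.43, adjusted p = 1.8e-04). ZNF paralogs of a cluster share sequence, and reads may be split between them.

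Genes of RNA processing changed in small steps. Of 32 SR proteins, hnRNPs and their kinases 13 fell (40.6%) and 4 rose (12.5%, median -0.09). In knockdown against control 15.3% of all genes tested fell and 14.7% rose. SRSF3 went from 377, 365 and 369 to 241, 264 and 231 CPM (-0.59, SE 0.05) and SRSF6 from 368, 338 and 349 to 237, 222 and 223 CPM (-0.63, SE 0.05). The kinases CLK1 (25.02, 23.5 and 23.7 to 36.8, 33.8 and 33.4 CPM, 0.53) and CLK4 (10.2, 10.4 and 12.9 to 18.0, 16.7 and 15.1 CPM, 0.57), which phosphorylate SR proteins, rose. With PRGL493 12 members of this list rose and 6 fell, where 21.4% of all genes tested rose and 20.4% fell.

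Of 24 host genes of small nucleolar RNAs and nuclear long non-coding RNAs 8 rose (33.3%) and 4 fell (16.7%, median 0.14). In knockdown against control 14.7% of all genes tested rose and 15.3% fell. SNHG1 went from 32.7, 29.3 and 29.6 to 60.0, 58.9 and 59.1 CPM (log2 fold change 0.96 with an SE of 0.06, adjusted p = 2.9e-09). The other side held SNHG3 (116, 106 and 102 to 60.5, 61.01 and 57.2 CPM, -0.86) and MIR22HG, the host of miR-22 (43.7, 32.6 and 34.2 to 12.7, 10.9 and 13.1 CPM, -1.59, SE 0.11). With PRGL493 1 member rose and 14 fell, where 21.4% of all genes tested rose and 20.4% fell. SNHG1 was at 19.8, 19.6 and 19.9 CPM with PRGL493 (knockdown over PRGL493 1.59, adjusted p = 4.4e-12). These genes overlap the small RNAs they host. Mitochondrial ribosomal proteins rose in 17 of 78 cases (21.8%) and fell in 1 (1.28%, median 0.13), and without replicate 2 in 10 and 4 (median 0.06). Over all alternatives the number higher ran from 8 to 32.

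Double-stranded RNA sensors and effectors of the antiviral response fell in 10 of 19 cases and rose in 2 (median -0.21). Those shares were 52.6% and 10.5%, against 15.3% and 14.7% of all genes tested in knockdown against control. The number of members lower was 5 without control replicate 1, 6 without control replicate 3 and 6 without knockdown replicate 3. OAS3, an oligoadenylate synthetase that double-stranded RNA activates, went from 27.1, 28.4 and 27.7 to 20.2, 19.3 and 22.7 CPM (-0.42, SE 0.07), and its paralog OAS1 from 2.64 ± 0.331 to 1.67 ± 0.352 CPM (-0.67, SE 0.19, adjusted p = 0.013). With PRGL493 4 of the 19 members fell and 3 rose, where 20.4% of all genes tested fell and 21.4% rose.

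Survival, proteostasis and metabolism gave few large changes. In the BCL2 family 3 of 16 members rose and 2 fell (18.8% and 12.5%, near the background, median -0.02), and MCL1, the short-lived anti-apoptotic member, fell 2.78-fold, from 816, 768 and 791 to 301, 272 and 281 CPM (log2 fold change -1.47 with an SE of 0.05, adjusted p = 1.4e-12). BAG3, a cochaperone, fell (90.3, 83.9 and 86.6 to 50.2, 52.0 and 51.9 CPM, -0.76) among 26 heat shock genes of which 5 fell and 4 rose. It was at 92.9, 90.9 and 87.9 CPM with PRGL493. STC1, a secreted glycoprotein induced by hypoxia, fell from 458, 497 and 497 to 274, 245 and 264 CPM (-0.89) in a list of 24 hypoxia targets with 6 lower and 2 higher. Of 22 circadian clock genes 6 fell and 1 rose, led by BHLHE40 (357, 333 and 330.3 to 128, 131 and 133 CPM, -1.38). Shares near or below the background were found for mTORC1 regulators (3 higher and 3 lower of 34), lysosome and autophagy (2 and 6 of 30), proteasome subunits (3 and 3 of 34), small RNA machinery (1 and 1 of 13) and nuclear receptors (2 and 4 of 22). Glycolysis genes had 4 of 28 higher and 7 lower, and amino acid transporters 5 of 26 higher and 8 lower. Without knockdown replicate 2 further counts moved by over 1.5 times, to 8 higher for collagens, 8 lower for NF-kB regulators, 6 higher for flippases, 5 higher for small RNA machinery, 4 higher for nuclear receptors, 2 higher for glycolysis and for the clock, 1 higher for integrins and for double-stranded RNA sensors, and 4 lower for the unfolded protein response. Proteasome subunits then had 1 higher and 5 lower, and the BCL2 family 1 higher and 3 lower. Over all alternatives proteasome subunits ran from 0 to 10 higher and from 2 to 8 lower, so their place near the background depended on the setting. Small calls named above that were lost under at least 1 alternative were COL7A1 (largest adjusted p 0.07), EREG (0.076), FOSL2 (0.089), HSPA5 (0.056), IL7 (0.14) and OAS1 (0.055).

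Measured in scaled counts rather than ratios, the 10 largest falls together changed by -12165.1 CPM. CYR61 (4885, 4813 and 4608 to 1763, 1904 and 1872 CPM) led them, and EGR1 and CTGF were among them (CTGF 1863, 1992 and 1832 to 227, 201 and 205 CPM). The 10 largest rises together added 4791 CPM, led by EEF1A1, the translation elongation factor (15518, 15983 and 15762 to 16864, 19719 and 17185 CPM, 0.19, SE 0.05, adjusted p = 0.016). CPM are not scaled for transcript length, so long transcripts weigh more in these sums. TXNIP, an inhibitor of glucose uptake, rose from 1136, 1190.4 and 1158 to 1408, 1465 and 1433 CPM (0.31). For PLEC (-0.65, adjusted p = 0.037), ENO1 (0.18, 0.022), EEF1A1 and FN1 (0.31, 0.015), leaving out single libraries ended the call, and for FN1 (942, 1049 and 999 to 1340.1, 1036 and 1324 CPM) the groups overlapped through knockdown replicate 2. PLEC was lowest in that library (1029.9, 646 and 1038 CPM in knockdown), and without it the log2 fold change was -0.46 (adjusted p = 6.8e-06). EEF1A1 was highest there, and its log2 fold change without it was 0.11 (adjusted p = 0.026). ENO1 was not called without it (adjusted p = 0.053).

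Beside ACSL4, within 1000000 bp on chromosome X, 4 other genes were tested. AMMECR1 (110194186 to 110440233) fell from 19.2, 17.0 and 18.8 to 12.1, 9.38 and 10.7 CPM (-0.77, SE 0.10, adjusted p = 2.8e-05). It was also lower with PRGL493 against the same controls (11.2, 14.0 and 12.6 CPM, PRGL493 over control -0.55, adjusted p = 3.8e-04), and the cause was not tested. NXT2 (109535781 to 109544690) was lower by a small amount (19.03, 18.8 and 19.5 to 16.8, 16.4 and 15.3 CPM, -0.24, adjusted p = 0.047), and this call was lost under at least 1 alternative (largest adjusted p 0.16). TMEM164 (-0.08) and COL4A5 (0.06) were not called.

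The 6 tested genes in which knockdown replicate 2 lay furthest from the other knockdown libraries were BOLA2B, CCDC180, SULT1A4, NSFP1, CUZD1 and MUC6. None was called with all libraries. NSFP1, a pseudogene, had 1.21, 1.23 and 0.642 CPM in control and 0, 0.738 and 0 CPM in knockdown, and MUC6, a gel-forming mucin, 0.131, 0.195 and 0.367 and 1.07, 0.0264 and 0.616 CPM. BOLA2B and SULT1A4 have near-identical copies in the genome, and both were at 0 CPM in control replicate 2 as well as in knockdown libraries.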

How the data were processed

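RNA-seq was made from 9 libraries, of which the 6 of the ACSL4 knockdown and empty-vector groups are compared here. The authors deposited expected counts per gene symbol, not all of them whole (10.5% of all values were not), with GRCh38 the build named, per the submitters' processing notes. For aligner, counter, annotation and strand setting, nothing is given in the sources used here. The counts were rounded, so the test planned for raw counts was kept. Of 26475 gene entries, 28 had symbols turned into dates and carried 0.236 to 0.258% of counts. They stayed in library sizes and tests and are named nowhere.

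Genes were filtered with filterByExpr, scaled with TMM and fitted over all 9 libraries by group with edgeR 4.0.16 (limma 3.58.1, R 4.3.3) by the quasi-likelihood test. Adjusted p-values are Benjamini-Hochberg values over all 14135 genes tested, called below 0.05. DESeq2 1.42.0, other scalings and filters, a replicate block, removal of each library's length trend and leaving out each library were alternatives. The fit was tested on simulated data. The biological coefficient of variation was 6.38% with 6 residual degrees of freedom. Between libraries of a group, chi-square per degree of freedom ran from 4.08 to 5.05 in control and 8.83 to 34.1 in knockdown, so no library was a repeat of another. Positions, overlaps and lengths come from GENCODE release 29, promoters from RefSeq.

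Named genes were ACSL4 and its neighbours, the 20 largest rises and falls above a mean log2 CPM of 2 with no overlap between groups, the 10 largest CPM differences per direction, up to 6 called members of each of 39 lists by size, and the 6 largest gaps of knockdown replicate 2. Those not described in the text appear in the plot of levels by library or only in the sums of CPM differences. Other genes named (members below the first 6 of a list, single ZNF genes and genes not called) were chosen after their values were seen. The members and lists were chosen with earlier results of these data known.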

Additional observations from a re-analysis of the deposited data

How the results depend on the processing

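With only genes of at least 1 CPM in 3 libraries, 56 genes were higher at least 2-fold in place of 97, as fewer low-level genes were tested. Leaving out each library in turn gave 1418 to 2369 genes higher, 1634 to 2401 lower, 85 to 114 higher at least 2-fold and 209 to 269 lower at least 2-fold, and for knockdown against PRGL493 2965 to 3613 higher and 2976 to 3796 lower. Same-numbered control and knockdown libraries deviated from their group means with r = 0.108, 0.152 and 0.062, so the replicate numbers were not taken to pair them, though each library correlated best with its own number. With a replicate block 1869 genes were higher and 2010 lower, and 2139 and 2275 with the length trend removed as well. Without knockdown replicate 2 and with the length trend removed, a setting chosen after seeing the data, 2212 were higher and 2386 lower. Over the named genes of the fixed rule and these settings, 980 values kept direction and side of the threshold, 16 lost the call and 4 gained it. In 6 more, all of BOLA2B, CCDC180 and CUZD1, which were not called in any of these 6 settings or with all libraries, the sign changed. Over all settings, members called ran from 3 to 9 higher for laminins, 2 to 5 higher for MAP kinase feedback, 5 to 11 higher for aminoacyl-tRNA synthetases, 7 to 13 higher for guidance genes, 2 to 8 higher for interleukins and for fatty acid oxidation, 4 to 8 higher and 3 to 8 lower for NF-kB regulators, 5 to 9 lower for collagens, 2 to 5 lower for ID and BMP genes (5 without knockdown replicate 1) and 12 to 30 lower for ZNF genes (12 without control replicate 3, 30 without knockdown replicate 1). Calls were lost for PLEC, EEF1A1, ENO1 and FN1, and gained for NSFP1 (-8.16 without knockdown replicate 2, where its other knockdown libraries were at 0) and MUC6 (1.85 without it). The cause was not tested. Groups of 3 libraries of 1 line limit what small differences can show.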
